A study of Mus musculus with 4 samples.

Results

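The 10 genes described here encode the endosomal and lysosomal proteases of antigen-presenting and myeloid cells, together with 1 inhibitor: the cysteine cathepsins Ctsb, Ctsc, Ctsh, Ctsl, Ctss and Ctsz, the aspartic proteases Ctsd and Ctse, the asparagine-specific protease legumain (Lgmn) and cystatin C (Cst3). They were chosen by gene symbol, and all 10 were found among the 31660 genes on the array. Their RNA was measured in bone marrow preproB cells, sorted as lineage-negative, B220+, CD43+, BP1-, CD24- cells, on 4 arrays of 1 colour. The EnhDel group (EnhDel 1 and EnhDel 2) came from C57BL/6 mice with the floxed enhancer at +37 kb of Cebpa and the Mx1-Cre transgene, both labelled as males of 24 weeks. The control group (control 1 and control 2) came from C57BL/6 mice with the same floxed enhancer and no Cre, labelled as a female of 26 weeks and a male of 24 weeks. Every mouse had been given 3 doses of pIpC, a double-stranded RNA that induces interferon, 5 weeks before the marrow was taken. Mx1-Cre is switched on by interferon in many cell types besides blood cells, and only the EnhDel mice carried it, so loss of the enhancer and presence of Cre cannot be told apart.

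Cathepsins are made as inactive precursors, carried to endosomes and lysosomes, and cut into active enzymes in the acid lumen. In dendritic cells, macrophages and B cells they break down taken-up protein and trim the invariant chain, which frees the groove of MHC class II molecules for peptide. Legumain helps to mature several cathepsins, and cystatin C blocks the papain-like ones. C/EBPα, the product of Cebpa, drives myeloid development, and preproB cells are an early stage of the B lineage.

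Some facts of the arrays bear on all values below. The Cebpa probe gave signals of 125 and 287 on the EnhDel arrays, against 1270 and 927 on the control arrays, so the 2 groups did not overlap. Xist, which only cells with an inactive X chromosome make, gave 597 on EnhDel 2, labelled male, and was not well above background on the other arrays, control 1, labelled female, among them. The Y-linked gene Ddx3y gave 3620 and 1560 on the EnhDel arrays and 3120 and 3470 on the control arrays. The sex-linked genes therefore went against the label of control 1, and those of EnhDel 2 showed both Xist and Y-linked RNA, so values without these 2 arrays are given as well. The EnhDel arrays lay farther apart over all tested genes, with an SD of log2 differences of 0.61, than the control arrays at 0.33. Between 59.6% and 64.9% of probes per array were well above background. P-values reflect nothing beyond the spread of these 4 samples, which the labels do not tie to separate litters or sorts, and their number limits the precision.

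No member differed between the groups past the adjusted threshold, and 9 of the 10 were estimated closely enough that the 95% interval of the difference lay within 2-fold. Of the 19390 genes tested, the same was true of 67.5%. In limma's fit 0 of the 10 members, and 0% of all genes tested, had a Benjamini-Hochberg adjusted p under 0.05. With no adjustment 1 member, Ctsl, was under 0.05, where 11% of all genes were. No member was 2-fold apart, against 6.26% of all genes. The median size of the members' differences, in either direction, was 0.13 on the log2 scale, against 0.20 for all genes tested. The members' median SE was also smaller, at 0.161 against 0.195 for all genes tested, which bears on each of these shares. All 10 member probes were well above background on all 4 arrays, with 1 spot each and no saturated or outlying spot, so every member was measured in both groups. Levels of different probes are not set against each other, because signal also depends on the probe.

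The upstream sequences of 3 members are shown because they carry motifs of factors tied to the study or to lysosomes. Among the members searched, Ctsl holds the only C/EBP-type match, Ctsd has a pair of E-boxes, the core of the element that TFEB and related lysosomal regulators bind, and Ctss holds the only interferon-type (ISRE) match. Each is the 250 bases before the start site from RefSeq, build GRCm38.p6, on the gene's own strand, with matches in capitals. Ctsl is chr13:64370521-64370770 on the minus strand, Ctsd is chr7:142387828-142388077 on the minus strand, and Ctss is chr3:95526536-95526785 on the plus strand.

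Ctsl: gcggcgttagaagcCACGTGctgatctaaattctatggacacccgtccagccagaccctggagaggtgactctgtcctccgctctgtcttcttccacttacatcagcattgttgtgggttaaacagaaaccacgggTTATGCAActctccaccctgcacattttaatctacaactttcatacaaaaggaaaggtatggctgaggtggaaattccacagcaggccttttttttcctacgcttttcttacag
Ctsd: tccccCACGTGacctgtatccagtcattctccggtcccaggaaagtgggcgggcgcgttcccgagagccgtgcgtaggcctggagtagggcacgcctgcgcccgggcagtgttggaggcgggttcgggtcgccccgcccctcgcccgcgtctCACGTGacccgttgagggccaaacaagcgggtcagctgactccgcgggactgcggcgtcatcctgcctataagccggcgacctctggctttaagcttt
Ctss: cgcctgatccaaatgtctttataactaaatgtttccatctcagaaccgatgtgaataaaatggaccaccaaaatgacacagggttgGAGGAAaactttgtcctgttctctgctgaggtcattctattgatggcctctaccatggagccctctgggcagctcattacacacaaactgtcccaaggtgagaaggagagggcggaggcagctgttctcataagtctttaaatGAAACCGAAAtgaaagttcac

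The motifs were searched on both strands as exact letters, and no match overlapped another. The E-box CACGTG was found at 236 bases before the start of Ctsl, at 245 and 98 bases before that of Ctsd, and in the second of 2 Lgmn promoters, and 6.02% of the 32851 promoters in the RefSeq table hold it. The C/EBP-type motif TTNNGCAA, held by 9.56% of promoters, was found at 114 bases before the start of Ctsl. The interferon-type motif, GAAA, any 2 letters and GAAA again, held by 2.98%, was found at 21 bases before the start of Ctss. The core GAGGAA, bound by the myeloid and B-lineage factor PU.1 and held by 23.3%, was found in Ctsc, Ctss and Cst3. In all, 7 of the 10 members could be searched, and a match describes letters and no more.

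Ctsl and Ctss are the cathepsins best known for cutting the invariant chain. Ctsl, which does this in the thymic cortex and is a general lysosomal endopeptidase, was higher on both EnhDel arrays. Its processed signal was 106741 and 114390 on the EnhDel arrays, against 83861 and 92913 on the control arrays. After each array was scaled to its 75th percentile, the log2 values were 6.78 and 6.78 in EnhDel cells and 6.37 and 6.35 in control cells. The replicates of each group thus nearly coincided, and the groups stood apart. The difference was 0.42 ± 0.14 on the log2 scale (SE, n = 2 arrays per group), a ratio of 1.34 with a 95% interval of 1.03 to 1.75. It did not pass limma's adjusted threshold, at an adjusted p of 0.428 and an unadjusted limma p of 0.0377. It was 0.41 to 0.43 with any 1 array left out, but 0.14 with the unrepaired normexp background correction and 0.25 with median scaling. The authors' deposited table lists Ctsl at 16.7 and 16.9 in EnhDel cells and 16.3 and 16.4 in control cells, on a log2 scale. The probe lies on chromosome 13 from 64465287 to 64465346 of mouse build mm9, on the minus strand. Whether any member probe falls in an exon or a UTR was not worked out.

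Ctss, the main invariant-chain protease of B cells and dendritic cells, gave 99540 and 99650 in EnhDel cells and 100951 and 99647 in control cells (chromosome 3 from 95360245 to 95360304, plus strand). Its scaled log2 values overlapped between the groups, at 6.68 and 6.58 on the EnhDel arrays and 6.64 and 6.45 on the control arrays. The difference was 0.09 ± 0.16 (SE, n = 2 per group), with an interval of -0.34 to 0.52 and an adjusted p of 0.862 in limma. The difference between the Ctsl and Ctss differences was not tested.

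Of the other cysteine cathepsins, Ctsc and Ctsz lay slightly higher in EnhDel cells with no overlap, and Ctsb and Ctsh overlapped. Ctsc, the dipeptidyl peptidase that activates granule serine proteases, gave 3680 and 4122 in EnhDel cells and 3605 and 3552 in control cells (chromosome 7 from 95458436 to 95458495, plus strand). Both EnhDel values exceeded both control values, by a log2 difference of 0.22 ± 0.16 (SE, n = 2 per group) with an interval of -0.20 to 0.64 and a limma adjusted p of 0.670. Ctsz, a carboxypeptidase, gave 36799 and 45266 in EnhDel cells and 37737 and 38516 in control cells (chromosome 2 from 174253228 to 174253287, minus strand). The raw signals overlapped, and the groups separated only after scaling, at log2 values of 5.25 and 5.45 on the EnhDel arrays against 5.22 and 5.08 on the control arrays. The difference of Ctsz was 0.20 ± 0.16, with an interval of -0.25 to 0.64 and an adjusted p of 0.715.

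Ctsb, a broad endopeptidase and carboxypeptidase of lysosomes, gave 124569 and 122606 in EnhDel cells and 124492 and 131814 in control cells (chromosome 14 from 63761906 to 63761965, plus strand). Ctsh, an aminopeptidase, gave 125585 and 141800 in EnhDel cells and 142927 and 133382 in control cells (chromosome 9 from 89970828 to 89970887, plus strand). For both genes the arrays of the 2 groups overlapped. The log2 differences were 0.05 ± 0.15 for Ctsb and 0.05 ± 0.17 for Ctsh (SE, n = 2 per group), with limma adjusted p of 0.925 and 0.929. Their intervals, -0.36 to 0.45 for Ctsb and -0.41 to 0.51 for Ctsh, leave room for a difference of either sign.

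The aspartic proteases held the widest spread of the set. Ctse, an endosomal protease of immune and epithelial cells, gave 349 and 614 in EnhDel cells and 228 and 352 in control cells (chromosome 1 from 133571990 to 133572049, plus strand). EnhDel 2 was the high array, and EnhDel 1 and control 2 had nearly equal raw signals. The scaled log2 values were -1.48 and -0.76 in EnhDel cells and -2.15 and -1.69 in control cells, so the groups did not overlap on that scale. The difference was 0.80 ± 0.32 (SE, n = 2 arrays each), a ratio of 1.75 with an interval of 0.957 to 3.19, the only interval that reached past 2-fold among the genes' brightest probes. The limma adjusted p was 0.475, and over the 16 alternatives it ran between 0.0572, without EnhDel 1, and 1. The difference was 0.45 without EnhDel 2 and 1.16 without EnhDel 1, and 0.22 between the 2 arrays left when EnhDel 2 and control 1 were both set aside. The authors' deposited table lists Ctse at 8.7 and 9.3 in EnhDel cells and 8.1 and 8.6 in control cells.

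Ctsd, the main aspartic protease of lysosomes, was read by 2 probes. The brighter one gave 14207 and 13653 in EnhDel cells and 13855 and 12928 in control cells (chromosome 7 from 149561962 to 149562021, minus strand). Its groups overlapped, with a log2 difference of 0.16 ± 0.18 (SE, n = 2 per group), an interval of -0.32 to 0.63 and a limma adjusted p of 0.786. The dimmer probe, whose positions run from 149566847 to 149568505, gave 676 and 1275 in EnhDel cells and 761 and 846 in control cells. EnhDel 2 alone was high there, and the difference was 0.31 ± 0.31 with an interval of -0.52 to 1.14. The probes thus gave differences of the same sign that lay within each other's error, while the high value on EnhDel 2 was seen with the dimmer probe and not with the brighter.

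Legumain and cystatin C, which act on the cathepsins from either side, also stayed within the error. Lgmn gave 4065 and 5078 in EnhDel cells and 4418 and 5173 in control cells (chromosome 12 from 103632415 to 103632474, minus strand). Each group held a low and a high array, and the log2 difference was 0.02 ± 0.16 (SE, n = 2 per group) with an interval of -0.41 to 0.46 and a limma adjusted p of 0.964. Cst3, which marks dendritic cells by its high expression, gave 52937 and 59342 in EnhDel cells and 62671 and 65940 in control cells (chromosome 2 from 148697681 to 148697740, minus strand). It was the only member lower in EnhDel cells, and both EnhDel arrays lay below both control arrays. On the scaled log2 values the difference was -0.10 ± 0.15, with an interval of -0.50 to 0.30 and an adjusted p of 0.835. It stayed negative under all 16 alternatives, between -0.37 and -0.02.

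**Figure D1:**
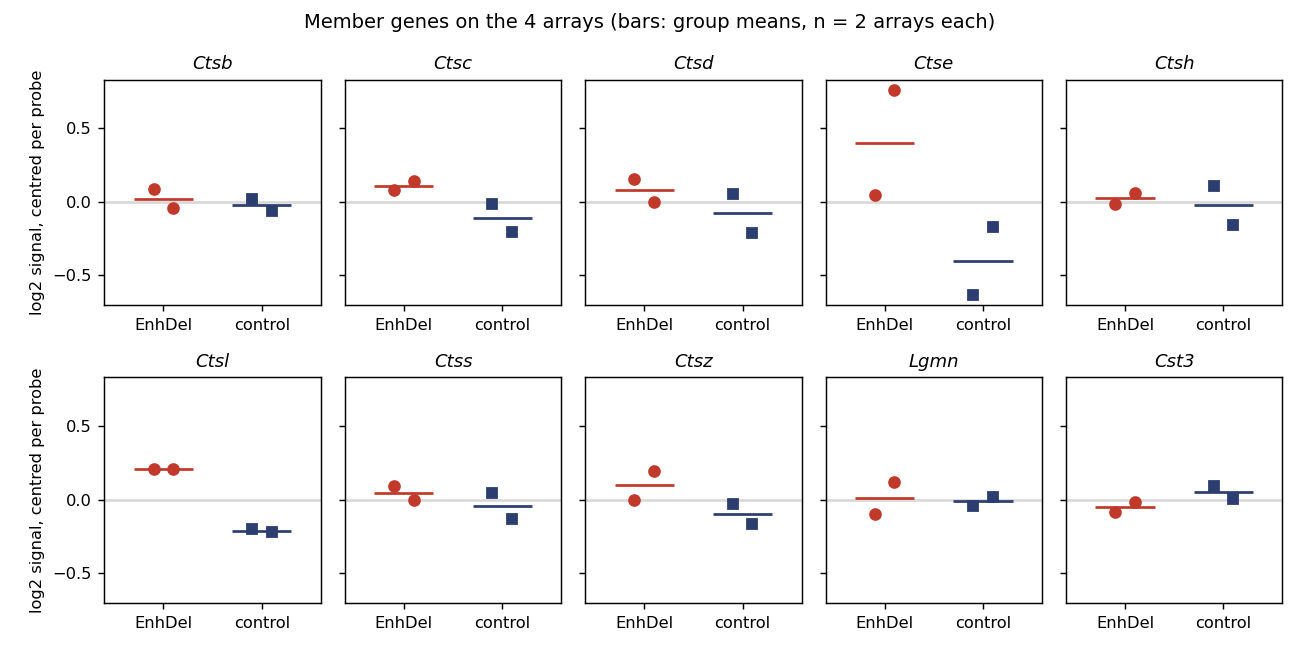
Scaled log2 signal of each of the 10 genes on the 4 arrays, centred on each probe's own mean (y axis, log2 units), with the EnhDel arrays (circles) left of the control arrays (squares) and a bar at each group mean (n = 2 each). Replicates of Ctsl nearly coincide and its groups stand 0.42 apart, Ctse has the widest scatter, and most other genes overlap or nearly touch.

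**Figure D2:**
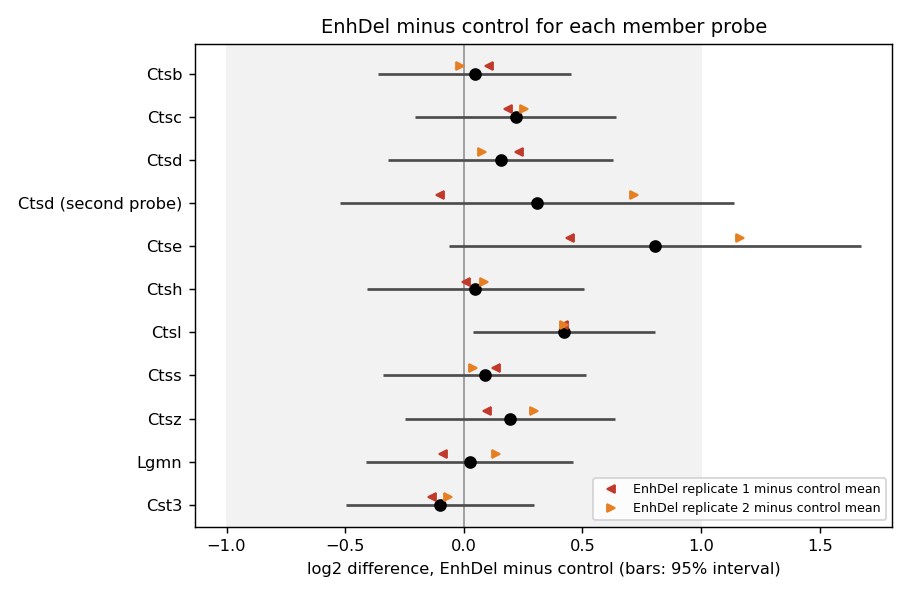
Log2 difference, EnhDel minus control, for each gene and the second Ctsd probe (black points) with its 95% interval (bars), and each EnhDel array minus the control mean (triangles). The shaded band spans a 2-fold difference either way, and only Ctse and the second Ctsd probe have intervals that leave it.

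On the scaled values, 4 members (Ctsc, Ctse, Ctsl and Ctsz) were higher on both EnhDel arrays than on both control arrays, where 27.1% of all tested genes were. In the other direction stood 1 member, Cst3, where 16.7% of all genes were. With 10 members these counts lie near the background and are not read as a result. The members' median difference was 0.12, against 0.06 for all genes tested, and 6 of the 10 lay above the median of all genes. Against the control mean, the member median was 0.12 on EnhDel 1 and 0.11 on EnhDel 2, against 0.06 on control 1 and -0.06 on control 2. The 2 EnhDel arrays differed from each other by a median of 0.11 over the members, gene by gene, and the control arrays by 0.16.

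The sign of several small differences depended on the processing. Higher in EnhDel cells were 9 of 10 members as reported, 4 of 10 with median scaling and 3 of 10 with the unrepaired normexp correction. Of all 19390 genes tested, 11325 were higher as reported. Quantile normalization and cyclic loess left 9 of 10 members higher. Median scaling lowered all genes alike, with their median at -0.12, and 6 of 10 members stayed above that median, as they did before. With the unrepaired normexp correction the median of all genes was 0.20. Ctsc, Ctse, Ctsl and Cst3 kept their sign in all 16 alternatives, and the other 6 members changed it in at least 1. No member passed the adjusted threshold in any of them.

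**Figure D3:**
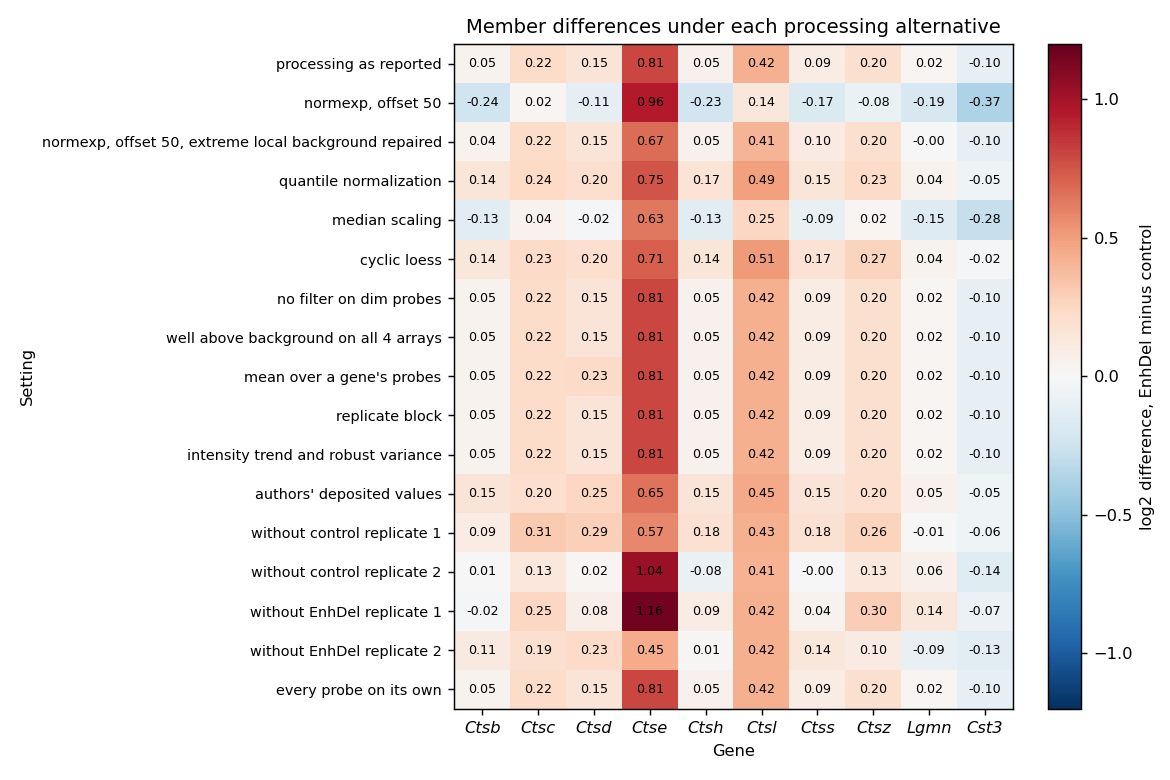
Log2 difference, EnhDel minus control, of each gene (columns) under the processing as reported and the 16 alternatives (rows), with the value in each cell and colour for its sign and size. Ctsc, Ctse and Ctsl are positive and Cst3 negative in every row. Ctsb, Ctsd, Ctsh, Ctss and Lgmn are negative under median scaling and under normexp with no repair.

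Between EnhDel 1 and control 2, the arrays left when those at odds with their sex labels were set aside, Ctsl differed by 0.43 and Ctsd by 0.37. Ctsc differed by 0.28, Ctss by 0.23, Ctse by 0.22 and Ctsz by 0.16, while Ctsb and Ctsh were 0.15 and 0.14 apart. Cst3 stood at -0.09 and Lgmn at -0.12. With 1 array per group these values have no test. Ctsl was as large without these arrays as with them, Ctse was smaller, and Lgmn changed sign.

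The wider protease family held differences of both signs, with a median size of 0.58 against 0.13 for the members, though none passed the adjusted threshold. The family's median SE was also larger, at 0.265 against 0.161, and some of its genes, such as Ctsk, Ctsf and Stfa2, were dim. Of 15 other cathepsins and protease inhibitors, 12 could be tested, 7 were higher and 5 lower in EnhDel cells. Their median was 0.21, but 0.02 without control 2 and -0.004 without EnhDel 2. Ctsk, the collagen-cleaving cathepsin of osteoclasts, gave 26.4 and 51.7 in EnhDel cells and 9.29 and 10.9 in control cells, where it was not well above background. It was at least 2.82-fold higher, with a limma adjusted p of 0.220 (the bound sets the dim arrays at their lowest signal well above background). With the repaired normexp correction, which adds an offset of 50 to each signal, the log2 difference was 0.46, below that bound. Serpina3g, an interferon-responsive inhibitor of cysteine cathepsins, gave 1390 and 4460 in EnhDel cells and 767 and 1230 in control cells. Its difference was 1.45 ± 0.58 (SE, n = 2 per group) at an adjusted p of 0.475, and 0.66 without EnhDel 2.

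On the other side, Serpinb1a, an inhibitor of neutrophil serine proteases, gave 739 and 758 in EnhDel cells and 1410 and 1850 in control cells. It was lower by both arrays, with a difference of -1.01 ± 0.16 (SE, n = 2 per group) and a limma adjusted p of 0.219. Ctsg, a serine protease of neutrophil granules and not a lysosomal cathepsin of the papain type, gave 31.5 and 2320 in EnhDel cells and 3980 and 5830 in control cells. EnhDel 1 was far below EnhDel 2, and the difference of -4.06 ± 2.08 had an adjusted p of 0.565. It was -7.11 without EnhDel 2 and -1.0 without EnhDel 1. Outside the rule for named genes, and picked after their values were seen, Ctsw of cytotoxic lymphocytes differed by 0.80 ± 0.14 and its fellow cytotoxic-cell gene Cst7, a cystatin that acts on Ctsc, by -0.76 ± 0.14, at adjusted p of 0.241 and 0.261.

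Other lysosomal genes differed by amounts like those of the members, and none passed the adjusted threshold. Of 43 genes for lysosomal hydrolases and membrane proteins, 42 were tested, 30 higher and 12 lower, with a median of 0.14 and none 2-fold apart. That median was 0.05 without EnhDel 2 and 0.22 without EnhDel 1, and median scaling gave 19 higher and 23 lower with a median of -0.03. With the unrepaired normexp correction 22 were higher and 20 lower. Slc11a1, a metal transporter of macrophage phagosomes, had a signal distinct from background on too few arrays to be tested. Of 24 genes for delivery to lysosomes, acidification and their control, all were tested, 19 higher and 5 lower, with a median of 0.14 and none 2-fold apart. Median scaling turned this to 7 higher and 17 lower, with a median of -0.04, the unrepaired normexp correction to 11 higher and 13 lower, and the median was 0.08 without EnhDel 2. Of all genes tested, 27.1% were higher and 16.7% lower with no overlap, beside 14 higher and 4 lower of the 42 hydrolase genes and 13 higher and 1 lower of the 24 delivery genes. Chosen after their values were seen, Sort1, a sorting receptor for lysosomal enzymes, differed by 0.52 ± 0.15 and Grn, a lysosomal growth factor precursor that cathepsins cut, by 0.44 ± 0.15. Their limma adjusted p values were 0.379 and 0.429. Tfeb and Tfe3, which switch on lysosomal genes through E-boxes of the kind printed above, differed by 0.14 ± 0.15 and 0.15 ± 0.15.

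Genes listed for MHC class II loading, where cathepsins cut the invariant chain, were higher more often than not. The list also holds Cd80 (log2 difference -0.21) and Cd86 (0.004), which are not class II genes. Of 13 tested, 11 were higher and 2 lower in EnhDel cells, with a median of 0.39, and 8 were higher with no overlap, beside 27.1% of all genes. The median was 0.17 without EnhDel 2, 0.14 with the unrepaired normexp correction and 0.21 with median scaling. H2-Aa, the alpha chain of the class II molecule, gave 15600 and 38500 in EnhDel cells and 11500 and 13400 in control cells, a difference of 1.08 ± 0.43 (SE, n = 2 per group) and 0.48 without EnhDel 2. Ciita, the class II transactivator, gave 500 and 1370 in EnhDel cells and 397 and 465 in control cells, a difference of 1.04 ± 0.48, and 0.37 without EnhDel 2. Their limma adjusted p values were 0.475 and 0.524. Cd74, the invariant chain itself, gave 107000 and 148000 in EnhDel cells and 81700 and 86000 in control cells, with a difference of 0.68 ± 0.19 and an adjusted p of 0.372. Cd74, named here as the substrate after its value was seen, and Ctsl were thus both higher on both EnhDel arrays, and no relation between them was tested.

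Markers of several other cell types differed between the groups in median by more than the members, those of plasmacytoid dendritic cells did not, and their part in the values above was not tested. In bulk samples, fewer cells of a type and less RNA per cell cannot be told apart. Plasmacytoid dendritic cells share B220 with preproB cells, and all 14 of their markers were well above background on all 4 arrays. Their median difference was 0.08, with 10 higher and 4 lower, but -0.09 with 4 higher and 10 lower under median scaling. Their summed level, in units of each array's 75th percentile, was 949 and 885 in EnhDel cells and 945 and 859 in control cells. A sum of this kind, here and below, is set mostly by a list's brightest genes. Siglech, the defining receptor of plasmacytoid dendritic cells, gave 164000 and 170000 in EnhDel cells and 170000 and 178000 in control cells. Irf7, the only marker of this list at least 2-fold apart, gave 3270 and 10100 in EnhDel cells and 2250 and 3250 in control cells. Its difference was 1.19 ± 0.55 (SE, n = 2 per group) at a limma adjusted p of 0.527, and 0.425 without EnhDel 2. With no overlap, 5 markers of the list were higher and 0 lower, beside 27.1% and 16.7% of all genes tested. Among 14 B-lineage markers, 4 were higher and 9 lower of 13 tested, with a median of -0.80 (-0.49 over the 12 well above background on all 4 arrays) and sums of 341 and 265 in EnhDel cells and 346 and 313 in control cells. Pax5, which commits cells to the B lineage, was not well above background on any EnhDel array and was so on 1 of 2 control arrays.

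Of 19 monocyte and macrophage markers on the array, 17 were tested, 6 higher and 11 lower in EnhDel cells, with a median of -0.57. At least 2-fold lower were 8 of them, where 585 of all 19390 genes tested were. The median was -1.05 without EnhDel 2 and -0.11 over the 13 markers well above background on all 4 arrays, and median scaling gave 2 higher and 15 lower. Their summed level was 364 and 350 in EnhDel cells and 356 and 346 in control cells. Most of it came from the bright genes Mpeg1, Ms4a4c and Ly86, with log2 differences of 0.09, 0.007 and 0.02, so it says little of the dimmer markers. Fn1, the gene of fibronectin, gave 2.59 and 2.6 in EnhDel cells, not well above background, and 627 and 293 in control cells. It was at least 32.6-fold lower, with a limma adjusted p of 0.0759, and its log2 difference was -1.71 with the unrepaired normexp correction and its offset. Cx3cr1, a chemokine receptor of monocytes, gave 169 and 73 in EnhDel cells and 2890 and 3450 in control cells, and Fcgr1 was well above background on no array. Of 10 neutrophil markers tested, 7 were at least 2-fold lower. The list's median was -1.08, but -0.46 without EnhDel 1 and -1.85 without EnhDel 2. Its sums were 72.8 and 112 in EnhDel cells and 104 and 109 in control cells. Most of each sum was Csf3r, a receptor and not a granule gene, at 69500 and 105000 in EnhDel cells and 85400 and 97500 in control cells. The granule gene Mpo gave 534 and 7220 in EnhDel cells, against 13700 and 18200 in control cells. Ltf, Ngp, Mmp8, Mmp9 and Retnlg were well above background on no array. The members, several of which monocytes and macrophages express strongly, differed by -0.10 to 0.80 on the same arrays. Any relation between the members and these markers was not tested.

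Conventional dendritic cell markers were lower in 10 of 11 tested, with a median of -0.20, and -0.36 without EnhDel 1. Their sums were 384 and 349 in EnhDel cells and 420 and 388 in control cells, with Xcr1 well above background on no array. T and natural killer cell markers were higher in 12 of 15, with a median of 0.86, but in 10 of 15 with a median of 0.37 without control 2, and the median was 0.50 on the values of the authors' deposited table. Their sums were 37.1 and 44.3 in EnhDel cells and 30.3 and 26.2 in control cells. Erythroid and megakaryocyte markers were higher in 9 of 9, with a median of 1.85. That median was 0.62 with the repaired normexp correction and 0.60 on the values of the authors' deposited table. Klf1, Gp9, Itga2b, Epor and Alas2 were tested only because both EnhDel arrays were well above background, which largely set their direction. Over the 4 markers well above background on all 4 arrays, 4 were higher, with a median of 1.48. The sums of the list were 2.41 and 3.97 in EnhDel cells and 0.651 and 1.17 in control cells. The 7 tested mast cell, basophil and eosinophil markers split into 4 higher and 3 lower. Their median of 0.33 was -0.55 without EnhDel 2 and 1.22 without EnhDel 1. The 3 lower, Hdc, Mcpt8 and Prss34, were tested only because both control arrays were well above background. Over the 4 markers well above background on all 4 arrays, 4 were higher and 0 lower, with a median of 0.91. The list had sums of 0.513 and 2.17 in EnhDel cells and 0.598 and 0.656 in control cells. EnhDel 2 had the highest sum of the last of these lists, though Hdc gave 51.9 there, against 82.9 and 81.4 in control cells. It was also the high array for Ctse, the dimmer Ctsd probe, H2-Aa, Ciita and Serpina3g, and no link between these was tested.

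**Figure D4:**
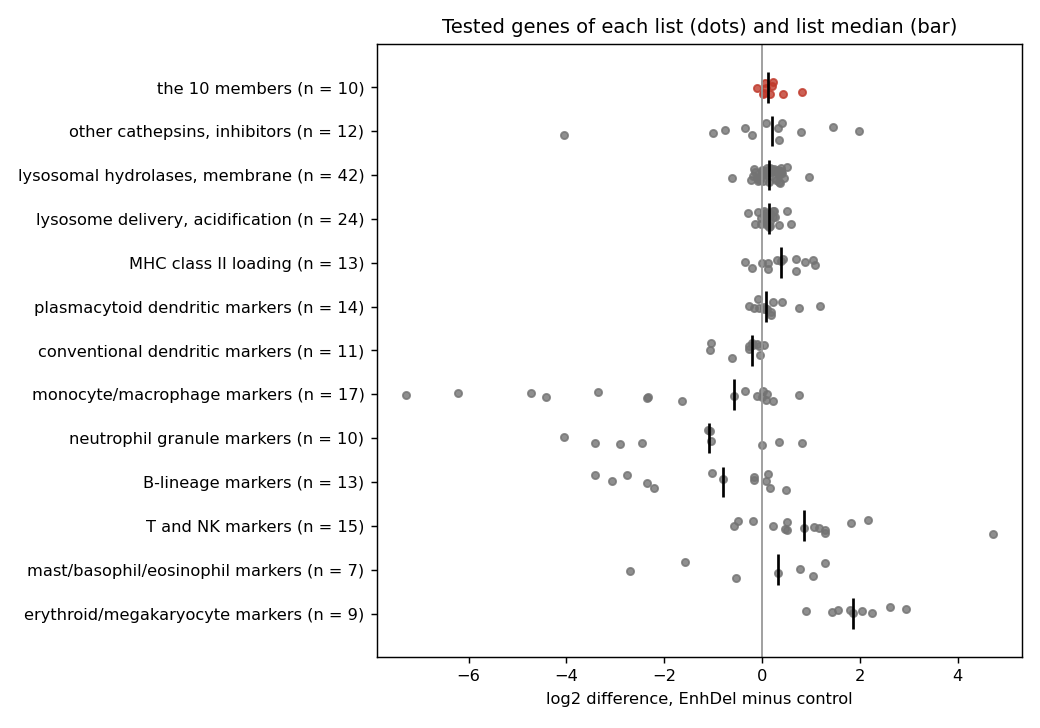
Log2 difference, EnhDel minus control, of every tested gene (dots) in each list, with a bar at the list's median. The 10 genes described here, in red at the top, lie between -0.10 and 0.80, closely bunched beside the monocyte, neutrophil, B-lineage, T and NK and erythroid marker lists.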

How the data were processed

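Sorted preproB cells of 2 EnhDel and 2 control samples were profiled on 1-colour (Cy3) Agilent arrays, all 4 on 1 slide in 1 scan. The scanner files deposited by the authors hold intensity per spot from Feature Extraction 10.7.3.1, per the file headers, with probe positions on mm9. The authors also deposited a log2 table whose columns had the same median, 6.5, and nearly the same distribution, with steps not given in the sources used here and no statement of its centring.

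From the 43020 non-control spots, outlier-flagged spots (126 to 162 per array) were left out. Processed signals were divided by their array's 75th percentile and taken to log2, spots of a probe were averaged, and the brightest probe stood for its gene. Of 39429 probes, 26581 were named by accession through a RefSeq table. A gene was tested where both arrays of a group, EnhDel or control, had it well above background (19390 of 31660), with lmFit and eBayes in limma 3.58.1 (R 4.3.3), Benjamini-Hochberg adjustment over all of them and a threshold of 0.05. The lowest signals well above background were 12.2 to 14.4. The fit was tested on simulated data.

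All 10 members are named. Of each of 12 other lists, up to 4 genes could be named, ranked by p, among those that were 2-fold apart or more and did not overlap; not all of these are printed, some listed genes are not reported here, and genes outside the rule, such as defining markers, were named after their values were seen. The genes nearest to a member in pattern were to be named only for members 2-fold apart, and there were none. Members and lists were chosen with earlier results of these data known. Same-numbered arrays did not deviate together over the tested genes (correlation -0.02). With 2 arrays per group this cannot settle whether the numbers pair samples, and the main fit left them unpaired. The alternatives were normexp with an offset of 50, with and without repair of spots whose local background exceeded 5 times the median, quantile normalization, median scaling, cyclic loess, other filters and probe rules, the replicate block, an intensity trend, the deposited log2 values and each array left out.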

Additional observations from a re-analysis of the deposited data

How the results depend on the processing

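With only 2 arrays per group, the count of genes past limma's adjusted threshold of 0.05 was not stable. It was 0 as reported, 26 with median scaling, 0 in the other alternatives that kept all arrays, and 0 to 3018 with 1 array left out: 0 without control 1, 3 without control 2, 79 without EnhDel 2 and 3018 without EnhDel 1. The lone array left in a group was then assumed to vary like the other group. With the replicate block the count was 0, and 1927 genes had an unadjusted p under 0.05, against 2126 with no block. The cause of these changes was not tested. No member passed the threshold in any alternative, and the lowest adjusted p was 0.0572, for Ctse without EnhDel 1.

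The members' median, 0.12 as reported, was -0.14 with the unrepaired normexp correction, -0.0539 with median scaling, 0.18 with quantile normalization, 0.19 with cyclic loess and 0.0402 (without control 2) to 0.222 (without control 1) with 1 array left out. Without control 1 and EnhDel 2 together, a setting chosen after seeing the data, it was 0.19. The unrepaired normexp correction also turned Ctsb (-0.24), Ctsd (-0.11), Ctsh (-0.23), Ctss (-0.17), Ctsz (-0.0766) and Lgmn (-0.19). Median scaling turned Ctsb (-0.13), Ctsd (-0.0201), Ctsh (-0.13), Ctss (-0.0877) and Lgmn (-0.151). Leaving out EnhDel 1 turned Ctsb (-0.0154), and leaving out control 2 turned Ctsh (-0.0827) and Ctss (-0.00323). Lgmn was -0.000687 with the repaired normexp correction, -0.0079 without control 1, -0.0862 without EnhDel 2 and -0.118 without control 1 and EnhDel 2. With 1 array, or control 1 and EnhDel 2, left out, Ctsb ran between -0.0154 and 0.148, Ctss between -0.00323 and 0.228 and Lgmn between -0.118 and 0.135. Every member's signal stood well above background, and the number of arrays limits the precision.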
